A study of Homo sapiens with 10 samples.

Results

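YAP/TEAD pathway genes in PC-3 spheroids were 10 genes of the 18144 in the table, namely 7 known targets (CCN1, CCN2, ANKRD1, AMOTL2, AXL, AJUBA and LATS2) and 3 factors (YAP1, WWTR1 and TEAD1). They were chosen by name, because CCN2 had been seen to be far lower in all 4 treated libraries, so their levels in treated against untreated spheroids are given as a description with no test. All 10 passed the filter on low values that left 14731 genes for testing.

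YAP1 and its relative TAZ, the product of WWTR1, are coactivators that carry no DNA-binding domain of their own and act on genes through the TEAD factors. The Hippo kinases, with LATS1 and LATS2 as the last step, phosphorylate both proteins and keep them out of the nucleus. Cell contact, a soft matrix and loss of actin tension favor the kinases, so mRNA of CCN1 and CCN2 is widely read as an output of YAP/TAZ with TEAD. Several targets, among them AMOTL2, AJUBA and LATS2, encode proteins that act back on the pathway.

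PC-3 is an established human prostate cancer line, labelled as wild type in genotype, and it was grown here as 3-dimensional spheroids. Each library was made from spheroids left untreated (days 0, 3 and 7), given the topoisomerase I inhibitor topotecan once as a bolus (CONV-TOPO, days 3 and 7), or given it in daily fractions as an extended exposure (EE-TOPO, also called METRO, days 3 and 7). All 7 libraries came from the same line with no other agent, and 1 library stood for each treatment and day, so no difference could be set against replicate spread. The study's methods describe an exposure of weeks for its RNA sequencing where the labels give day 7, and the days used here are those of the labels. The day 1 libraries, 3 in number, were not used here, and the study's key lists a smaller bolus for the CONV-TOPO library of day 3. Depth, read from the counts per 1000000 (CPM) that 1 read was worth, was 15.0 to 22.5 M reads (M, 1000000). Of the PC-3 markers, KRT8, KRT18, VIM and CD44 were high in every library (252 to 1169 CPM), and KLK3 had no values here. TMPRSS2, a serine protease of prostate epithelium, stood at 71.4 to 149 CPM, against the marker list for this line, which had it near 0.

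Upstream DNA is shown for the targets whose levels differed most between treated and untreated libraries, and it was searched for TEAD and AP-1 motifs. The rule took CCN2, CCN1, ANKRD1 and AMOTL2, and RefSeq promoters (GRCh38.p14) were at hand for CCN2, ANKRD1 and AMOTL2. Each line gives the 250 bases before the transcription start, 5′ to 3′ on the gene's strand, at chr6:131951373-131951622 (minus strand) for CCN2, chr10:90921088-90921337 (minus) for ANKRD1 and chr3:134375418-134375667 (minus) for AMOTL2. Capitals mark TGANTCA, a loose form of the AP-1 motif with any base (N) in the middle, and the TEAD motif GGAATG on either strand of the DNA.
CCN2: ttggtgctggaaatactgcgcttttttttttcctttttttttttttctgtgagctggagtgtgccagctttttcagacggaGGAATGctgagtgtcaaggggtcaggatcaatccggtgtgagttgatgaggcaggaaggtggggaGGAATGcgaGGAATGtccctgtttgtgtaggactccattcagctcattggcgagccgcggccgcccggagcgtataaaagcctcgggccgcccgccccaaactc
ANKRD1: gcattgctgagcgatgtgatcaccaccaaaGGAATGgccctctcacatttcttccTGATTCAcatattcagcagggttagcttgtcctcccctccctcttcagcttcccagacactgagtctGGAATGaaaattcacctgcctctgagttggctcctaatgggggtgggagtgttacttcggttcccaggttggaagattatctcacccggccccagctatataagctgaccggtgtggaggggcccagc
AMOTL2: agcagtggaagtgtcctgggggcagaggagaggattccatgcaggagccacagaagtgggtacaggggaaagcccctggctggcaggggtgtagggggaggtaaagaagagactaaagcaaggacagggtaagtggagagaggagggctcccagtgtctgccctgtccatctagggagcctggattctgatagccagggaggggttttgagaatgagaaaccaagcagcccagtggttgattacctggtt

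The CCN2 window held GGAATG 3 times, at 169, 104 and 95 bases before the start. Among 35116 RefSeq promoter windows of the same length, 11.9% held the motif once or more on either strand, and 0.0826% held it 3 times or more. ANKRD1 had 2 copies, at 220 and 128 bases before the start, which 0.94% of windows matched or exceeded. It also had 1 TGANTCA, which read TGATTCA, at 195 bases, a loose pattern found in 6.57% of windows. The AMOTL2 window had 0 of both motifs, although the window of its other listed start had 1 GGAATG. The SRF motif known as the CArG box, found in 1.16% of windows, was in 0 of the windows of the 7 members that had a RefSeq start at the deposited gene's start, and GGAATG was in 3 of these 7 (CCN2, ANKRD1 and YAP1). The motifs did not overlap each other, and a match is a description of the letters and not a bound site. CCN1 and TEAD1 had no window to search. CCN2 and ANKRD1, the 2 with more than 1 GGAATG among the 8 members that had a window, had different levels across the libraries, as given below for each gene.

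CCN2 encodes a secreted matricellular protein, also named CTGF, that binds integrins and growth factors. The gene lies at chr6:131948177-131951373 (hg38, minus strand). Its level was 122.7, 83.6 and 79.3 CPM in untreated spheroids on days 0, 3 and 7, against 34.2 CPM (day 3) and 21.1 CPM (day 7) with CONV-TOPO and 34.3 CPM (day 3) and 24.5 CPM (day 7) with EE-TOPO. All 4 treated libraries lay far below the lowest untreated one, with no overlap. As a ratio to the untreated library of the same day, after TMM scaling of the libraries, CCN2 was 0.397 with CONV-TOPO on day 3 (exact 95% counting interval 0.359 to 0.438), 0.317 on day 7 (0.281 to 0.357), and 0.391 (0.358 to 0.426) and 0.361 (0.321 to 0.405) with EE-TOPO. The intervals cover counting error only. CCN2 was chosen for this pattern, and its place among other genes is part of that choice. Among 11332 tested genes with at least 5 CPM on average, 16 and 24 had a lower ratio than CCN2 on day 3 with CONV-TOPO and EE-TOPO, 236 and 435 had one on day 7, and 0 had all 4 ratios below the highest ratio of CCN2. In bulk RNA, fewer cells with a transcript and less of it per cell cannot be told apart.

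CCN1, or CYR61, is the nearest relative of CCN2 in structure and in its response to YAP, and lies at chr1:85580761-85583950 (plus strand). It stood at 300.6, 288.7 and 266.1 CPM in untreated spheroids, at 194.3 and 170.6 CPM with CONV-TOPO and at 192.2 and 204.5 CPM with EE-TOPO. Here too the treated libraries did not overlap the untreated ones, but the gap was smaller than for CCN2. The ratio to the untreated library was 0.652 and 0.634 on day 3 for CONV-TOPO and EE-TOPO (intervals 0.624 to 0.682 and 0.609 to 0.660), and 0.764 and 0.899 on day 7 (0.729 to 0.800 and 0.859 to 0.940). CCN1 thus lay closer to untreated on day 7 than on day 3 after scaling, although with the deposited CPM the CONV-TOPO ratio was 0.673 on day 3 and 0.641 on day 7. CCN1 and CCN2 were the 2 of 10 members whose treated libraries were all below all untreated ones, beside 5.76% of all genes tested, and 0 members had all treated libraries above, beside 4.92%. Both counts of members were the same with library totals and with median-of-ratios scaling.

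**Figure D1:**
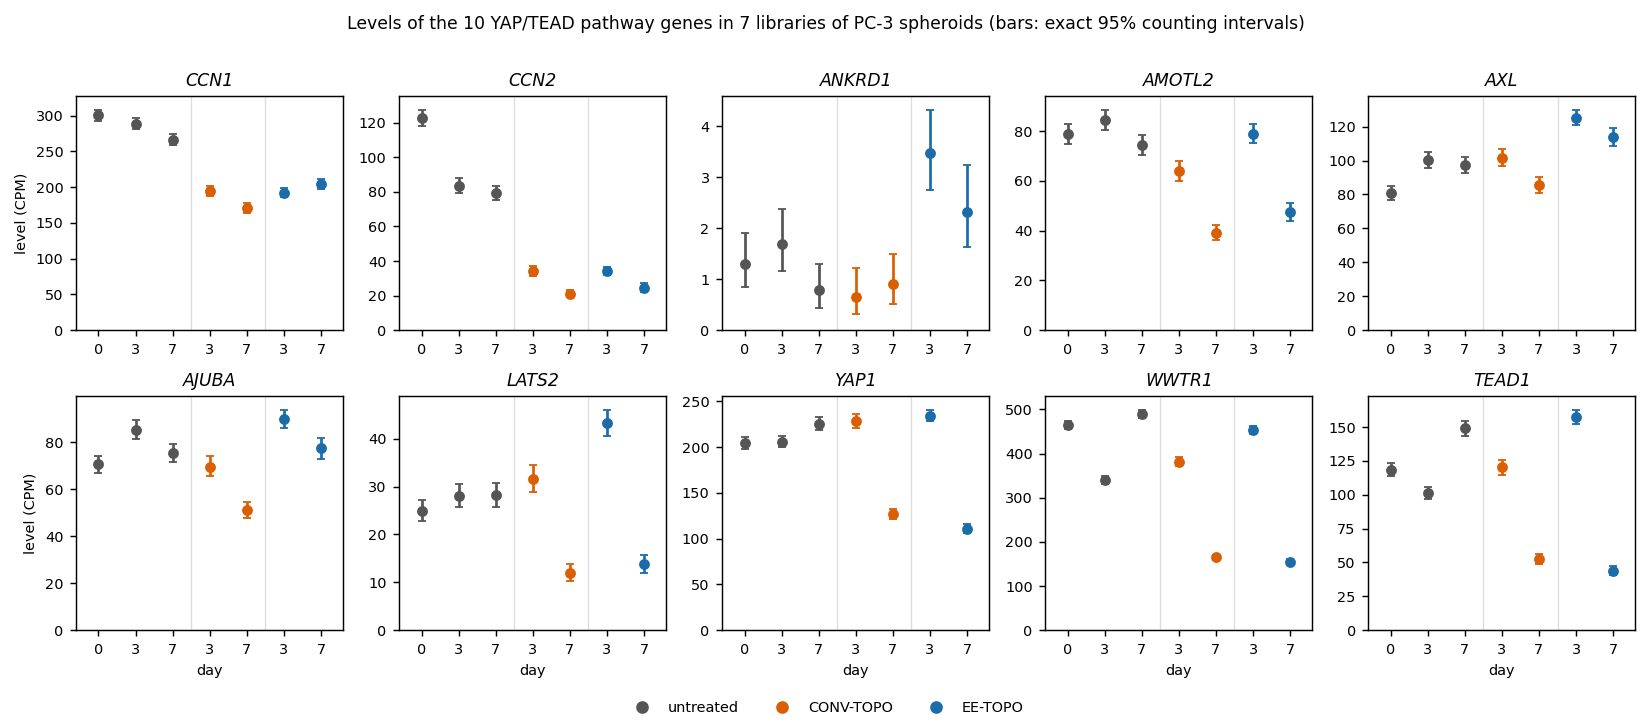
Level (CPM, vertical axis, from 0) of each of the 10 genes in each library, with the day on the horizontal axis and the treatment as the colour; points are single libraries and bars exact 95% Poisson intervals of the estimated reads. The treated libraries of CCN2 sit between 21.1 and 34.3 CPM and the untreated ones between 79.3 and 122.7 CPM, while YAP1, WWTR1, TEAD1 and LATS2 are lowest in the treated libraries of day 7.

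AMOTL2, a member of the angiomotin family that holds YAP at cell junctions, lies at chr3:134355345-134375418. Its level was 78.9, 84.5 and 74.4 CPM without drug, 64.0 and 39.2 CPM with CONV-TOPO, and 79.1 and 47.5 CPM with EE-TOPO. It was below the untreated library of the same day in all 4 pairs, by ratios of 0.735 and 0.628 with CONV-TOPO on days 3 and 7 and of 0.892 and 0.747 with EE-TOPO, but its EE-TOPO library of day 3 overlapped the untreated range. AJUBA, a LIM protein that binds and restrains the LATS kinases, lies at chr14:22971177-22982552. It stood at 70.6, 85.3 and 75.5 CPM in untreated spheroids, 69.7 and 51.2 CPM with CONV-TOPO, and 89.9 and 77.5 CPM with EE-TOPO. AJUBA was lower than untreated with CONV-TOPO on both days (ratios 0.792 and 0.808), and with EE-TOPO it was 1.00 of the untreated level on day 3 (0.940 to 1.07) and 1.20 on day 7 (1.11 to 1.30).

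AXL, a receptor tyrosine kinase for GAS6 linked to drug tolerance in carcinoma, lies at chr19:41219223-41261768. Its level was 80.8, 100.3 and 97.3 CPM without drug, 101.8 and 85.5 CPM with CONV-TOPO and 125.3 and 113.9 CPM with EE-TOPO. Both EE-TOPO libraries were above every untreated one, at ratios of 1.19 (1.12 to 1.26) and 1.37 (1.28 to 1.46), whereas the ratios of CONV-TOPO were 0.984 (0.919 to 1.05) and 1.05 (0.977 to 1.12). The sign of both CONV-TOPO values turned with the deposited CPM, and both EE-TOPO values kept theirs. ANKRD1, or CARP, a nuclear ankyrin-repeat protein best known from muscle, lies at chr10:90912096-90921088 and was the lowest member. It had 1.30, 1.69 and 0.788 CPM in untreated spheroids, 0.658 and 0.912 CPM with CONV-TOPO, and 3.47 and 2.33 CPM with EE-TOPO, which were 10 to 78 estimated reads per library. With EE-TOPO it was 1.96 (1.28 to 3.05) and 3.46 (1.84 to 6.81) of untreated on days 3 and 7, above all untreated libraries. With CONV-TOPO it was 0.377 (0.165 to 0.787) on day 3 and 1.38 on day 7, where the interval of 0.628 to 3.03 included no difference.

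LATS2, the kinase that phosphorylates YAP and TAZ and is itself raised by them, lies at chr13:20973036-21061587. It stood at 24.9, 28.1 and 28.1 CPM without drug, 31.5 and 12.0 CPM with CONV-TOPO, and 43.2 and 13.8 CPM with EE-TOPO. The day 3 libraries were at or above untreated, with ratios of 1.09 (0.960 to 1.23) for CONV-TOPO and 1.47 (1.32 to 1.64) for EE-TOPO, and the day 7 libraries were below it, at 0.507 (0.428 to 0.598) and 0.572 (0.485 to 0.673). With EE-TOPO its direction on day 3 was thus opposite to that of CCN1 and CCN2, and with CONV-TOPO the interval included no difference.

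YAP1, at chr11:102110447-102233425, had 204.5, 206.1 and 225.8 CPM in untreated spheroids, 228.6 and 127.3 CPM with CONV-TOPO and 234.6 and 111.0 CPM with EE-TOPO. WWTR1, which encodes TAZ, lies at chr3:149517229-149724789 and had 464.8, 340.1 and 489.5 CPM, then 381.7 and 164.6 CPM, and 452.9 and 154.2 CPM in the same order. TEAD1, the DNA-binding partner, lies at chr11:12674421-12944738 and had 118.4, 101.0 and 149.0 CPM, then 120.2 and 52.5 CPM, and 157.6 and 43.7 CPM. For all 3, both day 7 treated libraries were the lowest of the 7, and the day 3 treated libraries were within or close to the untreated range. On day 7 the ratio to untreated was 0.672 and 0.575 for YAP1 with CONV-TOPO and EE-TOPO, 0.401 and 0.368 for WWTR1, and 0.420 and 0.343 for TEAD1. On day 3 the ratios were 1.08 and 1.08 for YAP1, 1.09 and 1.27 for WWTR1, and 1.15 and 1.49 for TEAD1. The side of the day 3 values of WWTR1, and of TEAD1 with CONV-TOPO, depended on the untreated library of day 3. Both genes were at their lowest untreated level in that library. Against the mean of the 3 untreated libraries, the log2 ratio of WWTR1 on day 3 was -0.25 with CONV-TOPO and -0.025 with EE-TOPO. That of TEAD1 was -0.10 with CONV-TOPO and stayed above 0 with EE-TOPO, at 0.27. On day 3 CCN2 was at 0.397 and 0.391 of untreated, and none of the 3 factor mRNAs was below the untreated library of that day. A link between the factor mRNAs and CCN2 was not tested.

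**Figure D2:**
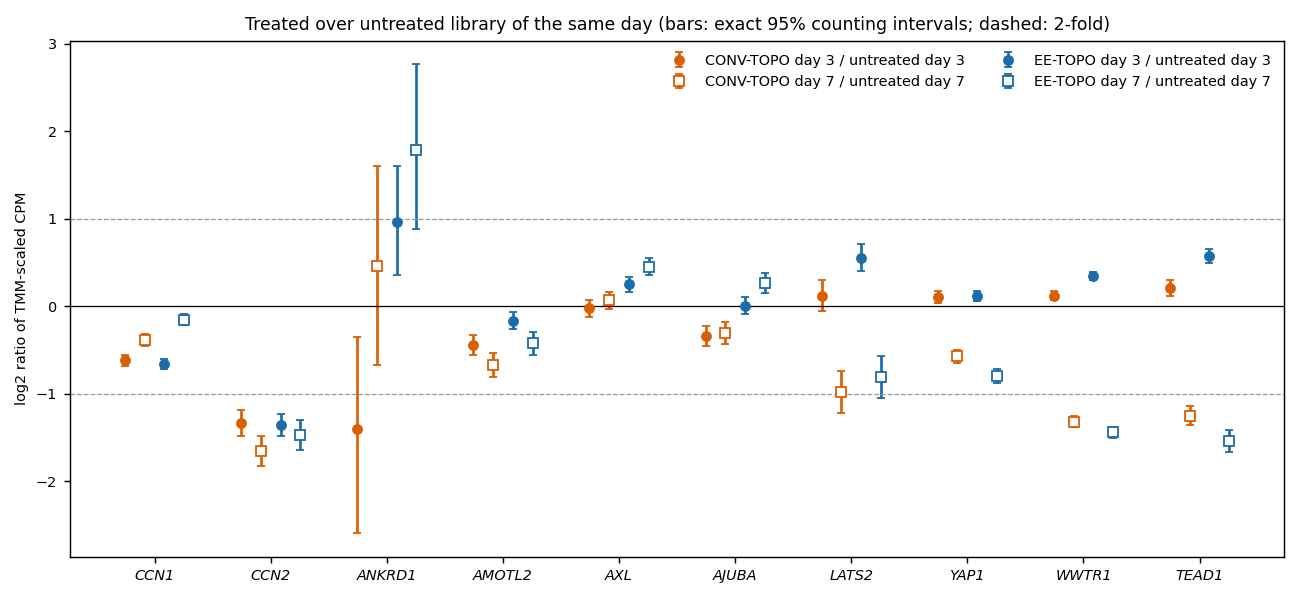
Log2 ratio of TMM-scaled CPM of each treated library to the untreated library of the same day (vertical axis) for the 10 genes (horizontal axis), with bars for exact 95% counting intervals and dashed lines at 2-fold. CCN2 lies between -1.66 and -1.33 in all 4 pairs, and TEAD1 lies at 0.21 and 0.57 on day 3 and at -1.25 and -1.54 on day 7.

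Counted at 2-fold, 2 of 10 members (CCN2 and ANKRD1) were lower with CONV-TOPO on day 3 and 1 (CCN2) with EE-TOPO on day 3, beside 2.03% and 1.86% of all genes tested. On day 7, 3 members (CCN2, WWTR1 and TEAD1) were lower in each regimen, beside 14.3% with CONV-TOPO and 14.9% with EE-TOPO. At least 2-fold higher were 0 members with CONV-TOPO on days 3 and 7 and with EE-TOPO on day 3, beside 3.51%, 10.1% and 4.68% of genes, and 1 member (ANKRD1) with EE-TOPO on day 7, beside 11.5%. The members were chosen from this contrast, so nothing is read from these shares. The median log2 ratio of the 10 members was -0.18 and -0.62 with CONV-TOPO on days 3 and 7, and 0.18 and -0.61 with EE-TOPO, against -0.01, -0.05, -0.03 and -0.05 over all genes tested. TMM factors of the treated libraries differed from those of their same-day untreated library by 0.04 (CONV-TOPO) and 0.07 (EE-TOPO) on day 3 and by -0.25 and -0.23 on day 7, as log2. With the deposited CPM, 5 members were at least 2-fold lower with EE-TOPO on day 7, beside 3015 of 14731 genes.

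Gene span, the length from first to last base with introns, moved with the day 7 ratios of all genes. Among 2593 tested genes over 100 kb, the median log2 ratio on day 7 was -0.57 with CONV-TOPO and -0.60 with EE-TOPO, and 26.2% and 29.7% of them were at least 2-fold lower. Among the genes under 10 kb it was 0.50 and 0.52. On day 3 the order was turned, with medians of 0.14 and 0.26 over 100 kb and of -0.08 and -0.19 under 10 kb. A shift of the same kind was seen without drug, as untreated day 7 over untreated day 3 had medians of 0.20 over 100 kb and -0.11 under 10 kb, and untreated day 3 over day 0 had -0.10 over 100 kb. Both day 3 ratios share the untreated library of day 3, so a difference of the treated libraries and one of this library cannot be told apart there. YAP1 spans 123 kb, WWTR1 208 kb and TEAD1 270 kb, and all 3 lay on the side of the median of genes over 100 kb on both days. LATS2 spans 88.6 kb. CCN2 and CCN1 span 3.20 and 3.19 kb, so their low day 7 levels went against the direction of short genes. After a trend with span was subtracted, the log2 ratio of CCN2 on day 7 was -2.15 with CONV-TOPO and -1.98 with EE-TOPO, that of CCN1 was -0.88 and -0.66, that of WWTR1 was -0.76 and -0.85, that of TEAD1 was -0.65 and -0.89 and that of YAP1 was -0.12 and -0.32. With this subtraction 1 member, CCN2, was at least 2-fold lower on day 7 in each regimen, beside 1591 of 14728 genes with CONV-TOPO. CCN2 is the gene for which the members were chosen, so nothing is read from this count. The part of gene span in the ratios was not tested.

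**Figure D3:**
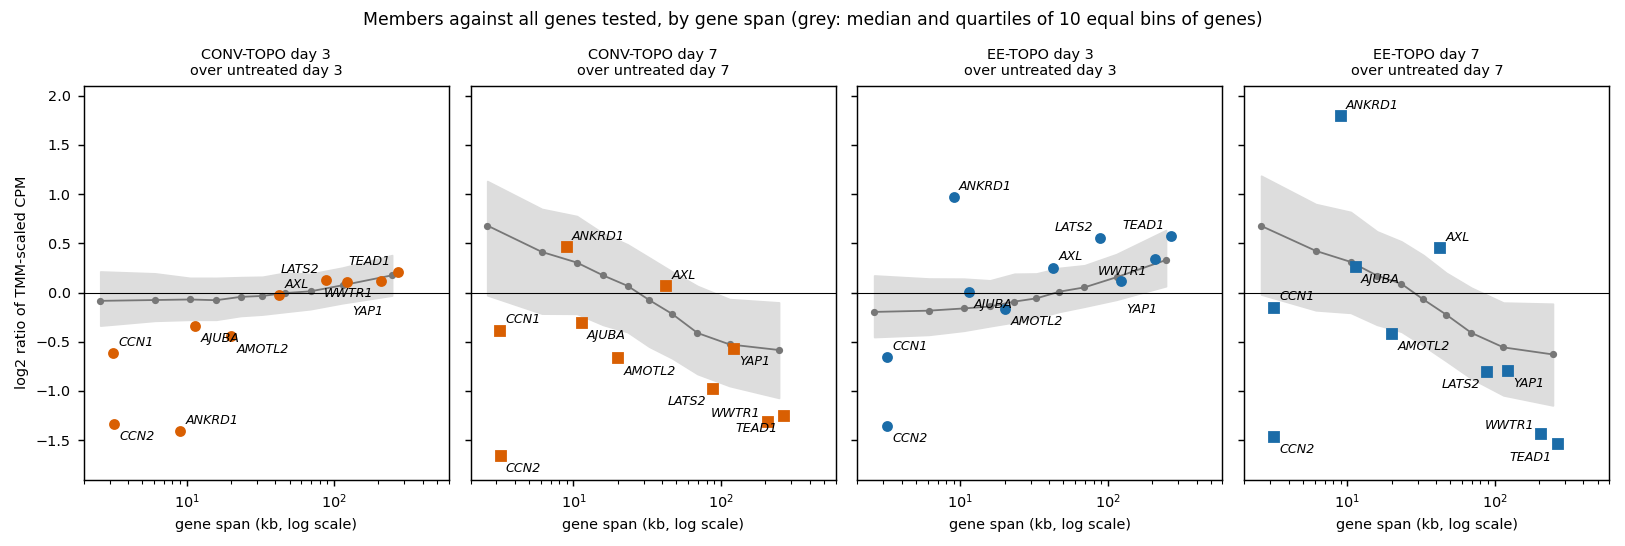
Log2 ratio of TMM-scaled CPM (vertical axis) against gene span in kb (horizontal axis, log scale) in the 4 pairs; the grey line and band are the median and quartiles of all genes tested in 10 bins of equal size, and coloured points are the 10 members. On day 7 the grey line falls with span and WWTR1 and TEAD1 lie under its right end, while CCN2 lies far under its left end.

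In untreated spheroids, CCN2 was lower on later days than on day 0, at 0.642 (0.603 to 0.685) on day 3 and 0.603 (0.565 to 0.643) on day 7. CCN1 was 0.906 and 0.826 of its day 0 level. WWTR1 was 0.690 on day 3 and 0.983 on day 7, and TEAD1 was 0.805 and 1.17, so the lower value of these factors was seen in the day 3 library only. AXL was 1.17 and 1.12 of day 0. Of the other members, AJUBA on day 3 (1.14), AMOTL2 on day 7 (0.880) and YAP1 on day 3 (0.951) had intervals that left out 1, and the value of YAP1 turned to above day 0 with the deposited CPM. These ratios rest on 1 library a day and have no test.

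Per kb of the canonical transcript, which allows levels of different genes to be set side by side, CCN1 led in untreated spheroids with a mean of 125 CPM per kb, followed by WWTR1 with 85.7, and the ranges over the 3 libraries did not overlap (117 to 132 against 67.5 to 97.2). CCN2 (40.7 CPM per kb, range 33.9 to 52.5) and YAP1 (39.3, range 37.9 to 41.8) came next and overlapped each other. AXL (19.7 CPM per kb), AJUBA (18.5), AMOTL2 (16.3) and TEAD1 (13.0) overlapped their neighbours in this order. LATS2 had 4.87 CPM per kb and ANKRD1 0.704, each apart from the rest. In GENCODE 44, exons of CCN2, YAP1 and WWTR1 share 11.9%, 11.6% and 11.4% of their bases with noncoding genes on the opposite strand, and the libraries do not mark strand, so reads of these pairs could not be told apart.

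EE-TOPO against CONV-TOPO was not the contrast by which the members were chosen, and it asks whether daily fractions and a bolus of topotecan differ. CCN2 was chosen for being low in both regimens, so its own values were used in the choice. Its estimate here is therefore a description. By limma, with day as a term and Benjamini-Hochberg adjustment, 0 of 14731 genes (0%) and 0 of 10 members had an adjusted p under 0.05, and 129 genes, ANKRD1 among them, had an unadjusted p under 0.05. The error in this fit is the change of treatment effects between days 3 and 7, not replicate spread. It includes the change of the difference from untreated, not only that of EE-TOPO from CONV-TOPO. The estimate was 0.08 for CCN2 on the log2 scale (SE 0.23, 95% interval -0.49 to 0.65, adjusted p = 1.00) and 0.10 for CCN1 (SE 0.24, -0.49 to 0.68, adjusted p = 1.00). The intervals included differences of up to 0.65 and 0.68, so the regimens were not shown to act alike on either gene. For ANKRD1 the estimate was 1.10 (SE 0.33, interval 0.28 to 1.91, adjusted p = 1.00), and it was higher with EE-TOPO on both days, by 5.18-fold on day 3 (2.67 to 11.2) and 2.51-fold on day 7 (1.33 to 4.94). That estimate was 0.44 with a pseudocount of 5 CPM, as the gene has few reads. AJUBA (estimate 0.45, SE 0.22), AXL (0.33, SE 0.22) and AMOTL2 (0.26, SE 0.22) were also higher with EE-TOPO on both days, and all 3 had an adjusted p of 1.00 by limma. For AJUBA the EE-TOPO library had 1.27 (1.18 to 1.37) and 1.48 (1.36 to 1.62) of the CONV-TOPO level on days 3 and 7, and for AXL 1.21 (1.14 to 1.29) and 1.31 (1.22 to 1.40). YAP1, WWTR1 and TEAD1 had estimates of -0.11, 0.05 and 0.04, with 95% intervals that reached -1.14 and 1.22 for TEAD1, the least precise of the 3. All 7 targets had an estimate above 0, with a median of 0.29 against -0.01 over all genes, but on day 3, 5 of 7 were higher with EE-TOPO (CCN1 and CCN2 were not), and the estimates of CCN1, CCN2 and LATS2 changed sign when 1 library was left out.

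**Figure D4:**
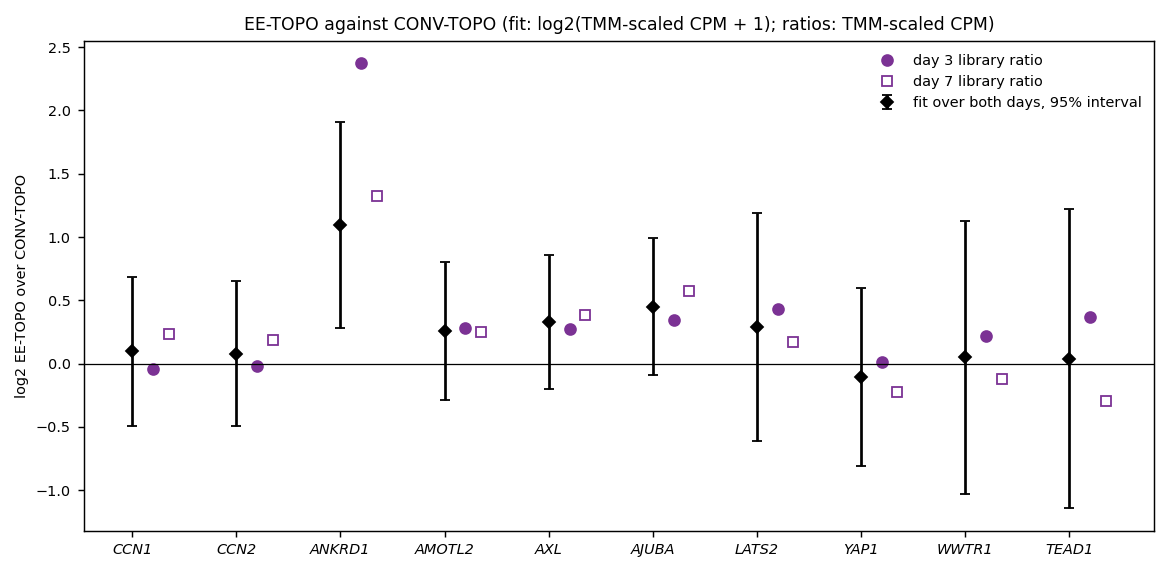
Log2 difference of EE-TOPO from CONV-TOPO (vertical axis) for the 10 genes (horizontal axis); black diamonds are limma estimates over both days with 95% intervals, and purple points are the library ratios of day 3 (filled) and day 7 (open). The intervals include 0 for all members but ANKRD1, whose estimate is 1.10.

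Other genes of the pathway came from lists that had been picked with earlier results of these data known, and they are described by counts and medians. Of 16 other YAP/TAZ targets, 15 were tested. With CONV-TOPO, 4 were lower than untreated on day 3 and 9 on day 7, beside 51.3% and 52.7% of all genes tested. With EE-TOPO 3 and 11 were lower, beside 52.6% and 52.3%. The median log2 ratio was 0.13 and -0.67 with CONV-TOPO on days 3 and 7 and 0.30 and -0.76 with EE-TOPO. With the deposited CPM, 12 and 11 were lower on day 7, when the medians over all genes tested were themselves -0.31 and -0.28. At least 2-fold lower was 1 of 15 on day 3 in each regimen (GADD45A), beside 2.03% and 1.86% of all genes, and 5 of 15 on day 7, beside 14.3% and 14.9%. Those of day 7 were MYOF, ASAP1, CRIM1 and DOCK5 in each regimen, with TGFB2 for CONV-TOPO and PTPN14 for EE-TOPO, and all but TGFB2 span over 100 kb, a class in which 26.2% and 29.7% of genes were at least 2-fold lower. At least 2-fold higher were 0 of 15 with CONV-TOPO and 2 of 15 with EE-TOPO on each day (IGFBP3 on both, F3 on day 3 and NUAK2 on day 7), beside 4.68% and 11.5% of all genes for EE-TOPO. GADD45A, ASAP1, DOCK5, PTPN14, F3 and NUAK2 were named after their values were seen. The day 3 ratios of GADD45A rest on an untreated library of day 3 at 247 CPM, against 108 and 97.9 CPM on days 0 and 7. Its day 3 levels of 126 CPM (CONV-TOPO) and 116 CPM (EE-TOPO) lay within the untreated range. NUAK2 with EE-TOPO on day 7 (4.26 CPM) also lay within its untreated range of 1.68 to 5.92 CPM. All 4 treated libraries were below all 3 untreated ones in 0 of 15, beside 5.76% of all genes, so this count does not set CCN1 and CCN2 apart from the list. IGFBP3, an IGF-binding secreted protein, went the other way, with 82.0, 138 and 132 CPM in untreated spheroids, 255 and 222 CPM with CONV-TOPO and 393 and 421 CPM with EE-TOPO, so that all treated libraries were above all untreated ones. TGFB2, a TGF-beta ligand, was 0.514 and 0.456 of untreated with CONV-TOPO on days 3 and 7, and 1.04 and 0.574 with EE-TOPO. Its CONV-TOPO level on day 3 (38.3 CPM) lay within the untreated range of 31.9 to 72.2 CPM. MYOF, a membrane-repair ferlin, and CRIM1, a cysteine-rich membrane protein, are long genes (176 and 195 kb) and were below untreated on day 7, at 0.467 and 0.392 for MYOF and 0.287 and 0.277 for CRIM1. Their day 3 ratios were above 1, but rest on an untreated library of day 3 that was low for both (CRIM1 at 82.2 CPM, against 123 and 127 CPM on days 0 and 7, and MYOF at 431 CPM, against 549 and 583 CPM), and CRIM1 with CONV-TOPO on day 3 had 92.6 CPM. NT5E, the CD73 ectonucleotidase, was 0.720 and 0.592 of untreated on day 7.

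Of the 17 Hippo kinases and upstream activators, 16 were tested, with medians of 0.14 and -0.47 with CONV-TOPO on days 3 and 7 and of 0.30 and -0.55 with EE-TOPO. On day 7, 13 of the 16 were lower in each regimen, beside 52.7% and 52.3% of all genes tested, and 9 of the 16 span over 100 kb. WWC2, a scaffold that activates LATS kinases and spans 222 kb, was at 0.243 and 0.213 of untreated on day 7, and LATS1 had a log2 ratio of -0.92 and -1.09. NF2, the merlin protein at the top of the pathway, was higher on day 7, at 1.75 and 1.93 of untreated. RASSF1, a scaffold for the MST kinases, had a log2 ratio of 0.41 and 1.20 on day 7. With CONV-TOPO its day 7 level (34.7 CPM) lay within the untreated range of 26.8 to 47.6 CPM. The 16 TEAD partners and YAP/TAZ regulators had medians of 0.10 and -0.40 with CONV-TOPO and of 0.22 and -0.10 with EE-TOPO. Among them WTIP, a relative of AJUBA, was above untreated in all 4 treated libraries (6.50 to 7.30 CPM untreated, 7.63 to 12.2 CPM treated). STRN3, STRN and SIK2, which counter the kinase cascade, had log2 ratios of -0.60 to -1.13 on day 7. They span 133, 129 and 128 kb, and the day 7 medians of all genes over 100 kb were -0.57 and -0.60. With the deposited CPM the day 7 medians of the kinase list were -0.73 and -0.78.

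Among the other CCN genes, CCN3 and CCN4 were above the untreated library of day 3 in both regimens, unlike CCN1 and CCN2, but CCN4 (9.28 and 8.72 CPM) lay within its untreated range, below its 12.1 CPM of untreated day 7. CCN3, also named NOV, was 1.62 and 0.910 of untreated with CONV-TOPO on days 3 and 7 and 1.48 and 1.26 with EE-TOPO, and CCN4 was 1.36 and 0.582 with CONV-TOPO and 1.26 and 0.709 with EE-TOPO. CCN5 had at most 1.80 CPM and CCN6 did not pass the filter. MRTF with SRF is the other mechanosensitive pair that drives CCN1 and CCN2, and its list of 14 genes, of which 13 were tested, had medians of -0.09 and 0.68 with CONV-TOPO and of -0.02 and 0.60 with EE-TOPO on days 3 and 7. On day 7, 10 of 13 were higher in each regimen, beside 47.3% and 47.7% of all genes tested, among them the contractile and actin-linked genes CNN2 (log2 ratio 1.05 and 1.23), MYL9 (1.26 and 1.36) and FHL2 (0.86 and 1.04), and MRTFB, a 196 kb gene, was lower (-1.25 and -1.14). Of the 13, 5 span under 10 kb, a class with medians of 0.50 and 0.52 over all genes on day 7, and 3 span over 100 kb. Of those 3, MRTFA (226 kb) was higher on day 7 (0.52 and 0.60). MRTFB and VCL (-0.68 and -0.66) were lower. MRTFA and VCL were named after their values were seen, and the part of gene span in this list was not tested. With the deposited CPM 8 and 9 of the 13 were higher on day 7. Between EE-TOPO and CONV-TOPO, 0 genes of these lists had an adjusted p under 0.05 by limma, and 2 of 15 other targets, 2 of 16 regulators, 1 of 3 CCN genes, 0 of 16 kinases and activators and 0 of 13 MRTF/SRF genes had an unadjusted p under 0.05, against 129 of all 14731 genes tested.

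**Figure D5:**
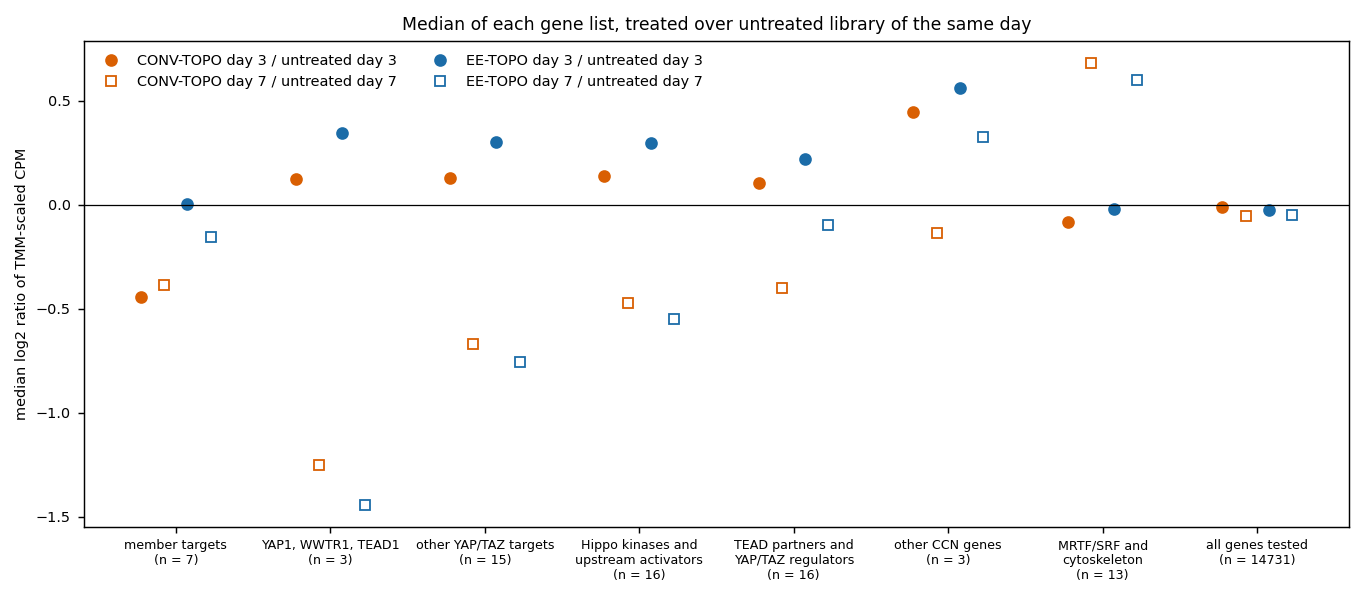
Median log2 ratio of TMM-scaled CPM (vertical axis) of each list of genes (horizontal axis, with the number tested) in the 4 pairs of treated over untreated libraries; filled circles are day 3 and open squares day 7. The factors, the other targets and the kinases lie above 0 on day 3 and below 0 on day 7, and the MRTF/SRF list lies at 0.68 and 0.60 on day 7.

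The genes with the pattern most like that of CCN2 were taken by Pearson's r of log2(TMM-scaled CPM + 1) over the 7 libraries, among 11264 genes outside the lists with at least 5 CPM on average. Of the 6 highest, 5 were CFL2 (r = 0.985), RUNX3 (0.982), CNN3 (0.976), COG2 (0.974) and PITRM1 (0.974). The points share the libraries and their scaling, so r is a description. These 5 moved less than CCN2, with CFL2 at log2 ratios of -0.36 and -0.57 with CONV-TOPO on days 3 and 7 and of -0.46 and -0.63 with EE-TOPO. Among the members, CCN1 was most like CCN2 (r = 0.885, with 195 other genes above it), then AMOTL2 (0.822) and WWTR1 (0.691), and AXL ran opposite (-0.70).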

How the data were processed

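RNA from PC-3 spheroids was sequenced by the authors from TruSeq v2 libraries, which do not mark strand. According to the methods, reads were mapped to hg38 with STAR, scaled to counts per 1000000 (CPM) and analysed with Partek and R packages. The authors deposited CPM for 18144 genes in 7 libraries, each summing to 1000000, with 0.0001 CPM added to every value, which was subtracted. Depth (15.0 to 22.5 M reads, M being 1000000) was read from the step of 1 read, and because 91.0% to 92.4% of low values lay on whole steps (tolerance 0.1 read), no count test was run. The members, the 8 gene lists and the tests were chosen with earlier results of these data known.

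Libraries were scaled by TMM. Genes with at least 0.565 CPM (10 reads at the median depth of the 6 libraries fitted) in at least 2 libraries were tested. limma 3.58.1 (R 4.3.3) was fitted on log2(scaled CPM + 1) over the 6 libraries of days 3 and 7 with treatment and day as terms (2 residual degrees of freedom). P-values were adjusted by Benjamini-Hochberg with a threshold of 0.05. The same fit of both regimens against untreated, the contrast that chose the members, passed 0 genes (531 at an unadjusted p under 0.05). Ratios of single libraries had no pseudocount and exact 95% intervals from estimated reads. Named were all members, and in each other list the 4 genes with the largest absolute mean log2 ratio over the 4 pairs and at least 5 CPM, plus genes the study names. Some genes that the rules name are not reported here. The fit and the scaling were tested on simulated data. Alternatives were other scalings, pseudocounts, filters, baselines, designs, a span trend and leaving out 1 library.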

Additional observations from a re-analysis of the deposited data

Results flagged for a closer look

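For 4 members, a regimen lay on one side of the untreated library on day 3 and on the other side on day 7, each with a counting interval that left out no change. The difference between days was not tested, since each day has 1 library. The log2 ratio of YAP1 was 0.10 on day 3 and -0.57 on day 7 with CONV-TOPO, and 0.12 and -0.80 with EE-TOPO. For WWTR1 it was 0.12 and -1.32 with CONV-TOPO, and 0.34 and -1.44 with EE-TOPO. For TEAD1 it was 0.21 and -1.25 with CONV-TOPO, and 0.57 and -1.54 with EE-TOPO. For LATS2 it was 0.55 and -0.81 with EE-TOPO. The side of the day 3 values of WWTR1, and of TEAD1 with CONV-TOPO, rests on the untreated library of day 3. Against the mean of the 3 untreated libraries, WWTR1 was -0.25 with CONV-TOPO and -0.025 with EE-TOPO and TEAD1 was -0.10 with CONV-TOPO on day 3, and the change of side between days was then not seen for these 3. TEAD1 with EE-TOPO was 0.27 on day 3 against that mean.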

How the results depend on the processing

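CCN2 kept its direction in all 4 treated libraries under every alternative run. Against the mean of the 3 untreated libraries its log2 ratio was -1.55 and -1.97 with CONV-TOPO on days 3 and 7 and -1.58 and -1.78 with EE-TOPO, and against untreated day 0 it was -1.97, -2.39, -1.99 and -2.20. With library totals it was -1.91 (CONV-TOPO) and -1.70 (EE-TOPO) on day 7, and in untreated day 7 over day 0 it was -0.63. Minus the span trend it was -2.15 on day 7 with CONV-TOPO, and -1.20 and -1.98 on days 3 and 7 with EE-TOPO. Members at least 2-fold lower went from 2 to 1 with a pseudocount of 1 CPM (CONV-TOPO day 3), from 3 to 1 minus the span trend (day 7, each regimen) and from 3 to 5 with library totals (EE-TOPO day 7).

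On day 3, WWTR1 turned to -0.25 (CONV-TOPO) and -0.025 (EE-TOPO) against the mean of the untreated libraries and to -0.41 and -0.19 against day 0, and TEAD1 with CONV-TOPO to -0.10 and -0.11. YAP1 turned to -0.059 with EE-TOPO on day 3 minus the span trend and to 0.012 in untreated day 3 over day 0 with library totals. The cause of these changes was not tested.

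For EE-TOPO against CONV-TOPO, 107 genes passed when only the 4 libraries of both treatments were fitted and 0 to 106 when 1 library was left out (95 without untreated day 3, 106 without untreated day 7, 3 without EE-TOPO day 3), with 0 members among them. Leaving out 1 library gave estimates from -0.10 to 0.29 for CCN1, -0.048 to 0.21 for CCN2, -0.10 to 0.68 for LATS2, -0.39 to 0.18 for YAP1, -0.48 to 0.58 for WWTR1 and -0.65 to 0.72 for TEAD1, so the sign of these 6 rests on single libraries. In both regimens against untreated, chosen after seeing the data, 3 to 6870 genes passed when 1 library was left out (6870 without untreated day 3). No paired analysis was possible because each treatment and day has 1 library and replicate numbers pair nothing. Day was a term of the fit instead, and without it 0 genes passed as well. Depth limits ANKRD1, with 10 reads in its lowest library, and 3 reads are 0.133 CPM in the deepest library.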
